A study of Mus musculus with 9 samples.

Results

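Neural crest and mesenchyme genes were followed by 10 symbols, Foxd3, Tfap2a, Tfap2b, Snai1, Snai2, Twist1, Ets1, Prrx1, Pdgfrb and Dcn. They were taken by exact symbol from the deposited tables, where all 10 were found among 38197 gene symbols, as markers of non-neural cells that a sorted neural fraction can carry. The neural crest arises at the dorsal border of the neural tube, where TFs of the Foxd3 and Tfap2 families specify it and Snai and Twist factors take part in its change from epithelium to migrating mesenchyme. The descendants of crest cells include peripheral neurons, glia, pigment cells and, in the head, mesenchyme and pericytes, and mesenchyme from mesoderm uses many of the same genes. A ventral neural progenitor is not known for expressing this programme as a whole, although some of its genes, such as Ets1 and Twist1, are not restricted to crest.

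The cells were E14.1 mouse ESCs, labelled as strain 129 and wild type, that were differentiated in monolayer towards ventral hindbrain in the presence of retinoic acid and the Smo agonist SAG from 0 to 3 days in differentiation conditions (DDC) by the labels; the methods of the study give the medium change that removed them at 3.5DDC. Cells with prominin-1, which marks the surface of neural progenitors, were sorted with magnetic beads at 4.5DDC, 5.5DDC and 6.5DDC, and polyadenylated RNA of 3 replicates per time point was sequenced. The 9 libraries share the line, the strain, the genotype and the treatment, and differ in the labels by time point and replicate number only. The labels do not say whether replicates came from separate cultures or what a number shares, so p-values measure only the spread between these samples, which may be technical.

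Counts of a library summed to 17820600, 11244489 and 14390493 at 4.5DDC (replicates 1, 2 and 3), to 25506192, 11573528 and 11066572 at 5.5DDC and to 12851795, 16479971 and 15913820 at 6.5DDC. A floor of 3 counts corresponds to between 0.118 and 0.271 CPM (counts scaled to a common library total) and covers counting error only. Replicates 2 and 3 of 5.5DDC were far more alike than any other pair: the chi-square of their counts per degree of freedom was 2.46, above the value of 1 that sampling noise gives, against 23.9 to 62.7 for the 8 other pairs within a time point. They were kept as separate libraries, and calls of named genes that are lost when their counts are summed as 1 library, an alternative chosen after seeing the data, are given with the genes. Levels are the authors' FPKM values, which are scaled to gene length and library size. Changes are log2 fold changes of the counts, with a gene called at an adjusted p under 0.05.

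The libraries carried the markers of the sorted population. Prom1, which encodes prominin-1, was between 62.8 and 207 FPKM, Sox2 between 78.2 and 96.0 FPKM and Nes between 138 and 172 FPKM. Other progenitor markers ran from Fabp7 between 142 and 911 FPKM and Msi1 between 106 and 170 FPKM to Pax6 between 0.719 and 7.21 FPKM and Hes5 between 0.684 and 12.9 FPKM. Prom1, the gene of the sorted protein, itself rose from 79.1 ± 14.3 FPKM at 4.5DDC to 183 ± 27.2 FPKM at 6.5DDC (SD, n = 3), with a log2 fold change of 1.19 (edgeR adjusted p = 0.00364). Among crest markers, the defining crest marker Sox10 had 0 counts in 7 of 9 libraries and at most 2 counts in a library. Pax3, a TF of the dorsal neural tube and early crest, had at most 5 counts. Other genes of the wider crest list, which are not restricted to crest, were well above this, such as Zeb2 between 24.5 and 29.2 FPKM, Cdh11 between 5.98 and 25.1 FPKM and Sox9 between 2.69 and 17.6 FPKM. Most of these genes were singled out after their values were seen. Sox10, Pax3 and Foxd3 were thus at or near 0, whereas other crest genes of the list were not. Ngfr was between 1.69 and 12.7 FPKM, Sox8 between 0.51 and 2.92 FPKM and Tfap2c between 0.218 and 2.9 FPKM. Pax7 had at most 21 counts. These genes were also named after their values were seen. Genes of the list that are less restricted to crest ran over the whole range, from Dlx5, named after its values were seen, at 0 in 8 of 9 libraries and at most 1 count, to Ednrb.

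Levels differed widely among the 10 genes. Over the 9 libraries, mean FPKM was 25.6 for Dcn, 7.21 for Twist1, 3.39 for Ets1, 1.46 for Pdgfrb and 1.33 for Snai2, and it was below 1 for the other 5 genes. Those were Snai1 (0.281), Tfap2a (0.162), Prrx1 (0.151), Tfap2b (0.126) and Foxd3 (0.00909). The ranges of Pdgfrb (0.488 to 2.62 FPKM) and Snai2 (0.796 to 2.49 FPKM) overlapped, as did those of Snai1, Tfap2a, Prrx1 and Tfap2b. The lowest Dcn library, at 4.91 FPKM, was also below the highest Twist1 library, at 9.23 FPKM. Among all symbols with a count, the mean FPKM of Dcn stood at percentile 79.1, that of Twist1 at 56.9 and that of Foxd3 at 6.62.

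**Figure D1:**
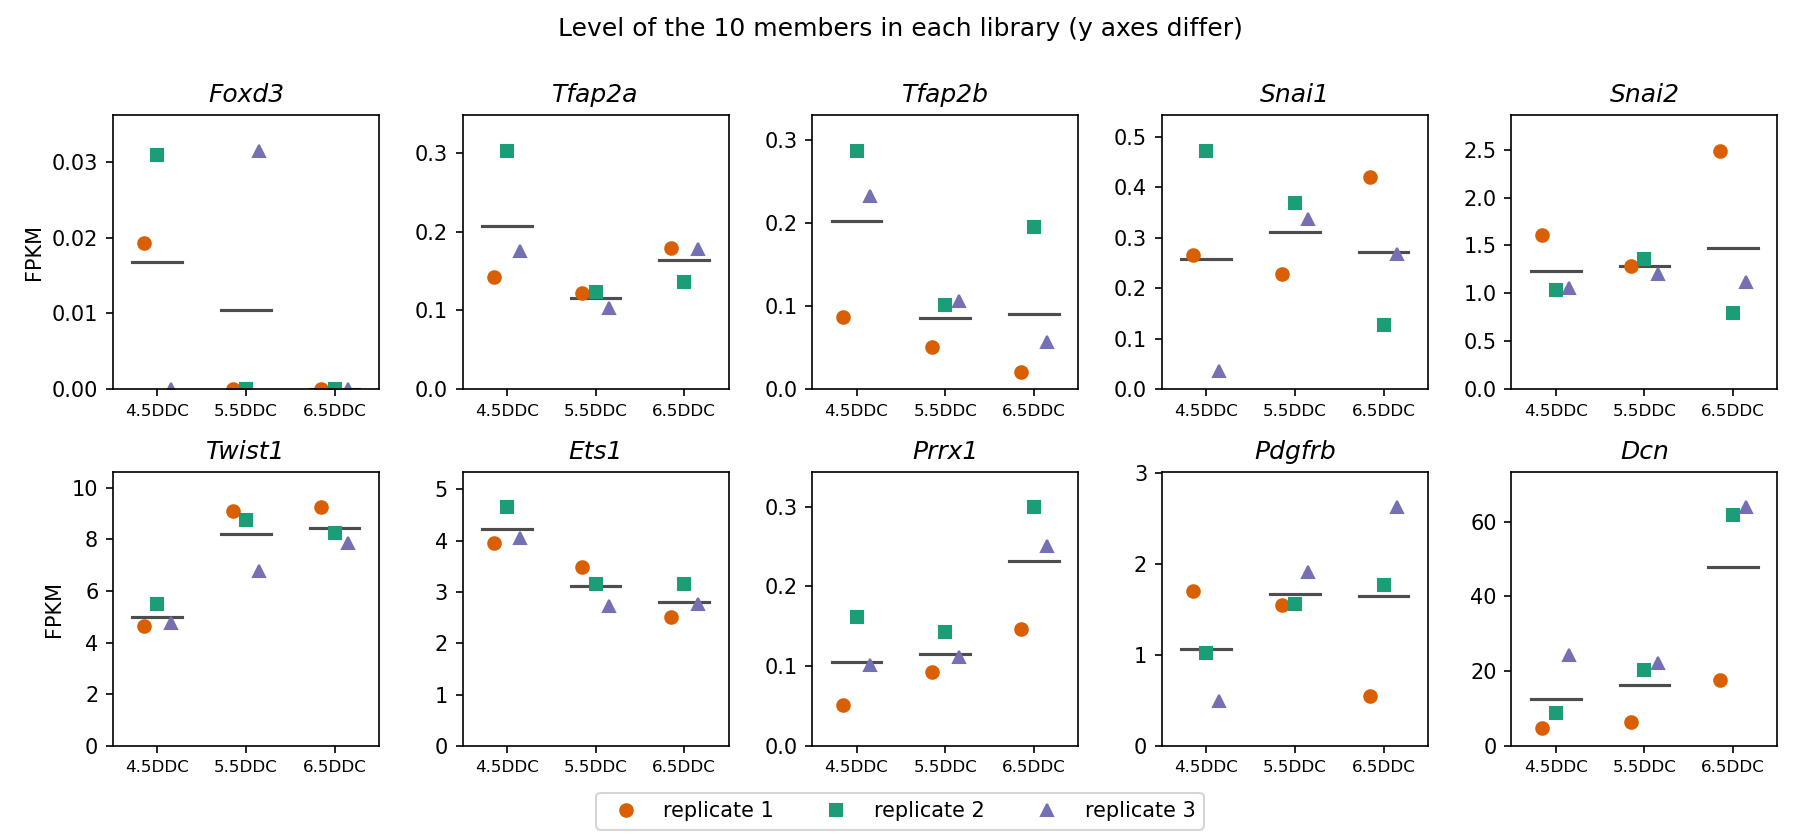
FPKM of each of the 10 genes (y axis, starting at 0, scaled separately) in the 9 libraries by time point (x axis); symbols are replicates 1, 2 and 3 and the line is the mean of the 3. Twist1 at 6.5DDC (7.86 to 9.23 FPKM) lies above 4.5DDC (4.66 to 5.51 FPKM), Ets1 lies lower at 6.5DDC, and replicate 1 has the lowest Dcn value at each time point.

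Of the 10 genes, 7 had enough counts to be tested; Foxd3, Tfap2a and Snai1 did not pass the expression filter. From 4.5DDC to 6.5DDC, 2 of the 7 passed the quasi-likelihood test of edgeR after Benjamini-Hochberg adjustment, against 18.7% of the 14742 genes tested. Twist1 was the 1 gene that rose, where 9.21% of all genes rose, and Ets1 the 1 gene that fell, where 9.53% of all genes fell. With so few genes, this count does not set the group apart from other genes. The median log2 fold change of the 7 was 0.61, with 5 higher and 2 lower, against 0.00398 over all genes tested. The libraries of 4.5DDC and 6.5DDC did not overlap in CPM scaled by TMM (trimmed mean of M values, a correction of library totals for composition) for 3 of the 7, Twist1, Ets1 and Prrx1, and for 35.1% of all genes; with library totals alone, Prrx1 overlapped.

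In the first interval, from 4.5DDC to 5.5DDC, edgeR's quasi-likelihood test called 0 of the 7 genes, against 0.0746% of all genes. Of the 7, 2 had an unadjusted p under 0.05, Twist1 and Ets1, as did 2275 of the 14742 genes tested. DESeq2 called 1, Twist1, and 3.80% of all genes. Limma voom and limma on log2 FPKM called 0, in fits that called 0.0678% (voom), 0.0475% (pseudocount 1) and 0.0407% (pseudocount 0.1) of all genes. The libraries did not overlap in TMM-scaled CPM for 2 of the 7 and for 25.4% of all genes. From 5.5DDC to 6.5DDC, edgeR's quasi-likelihood test again called 0 of the 7, against 0.224% of all genes. An unadjusted p under 0.05 was held by 2 of the 7, Prrx1 and Dcn, and by 2733 of the 14742 genes tested. DESeq2 called 0 of the 7 and 4.77% of all genes. Limma voom and limma on log2 FPKM called 0, in fits that called 0.142% (voom), 0.142% (pseudocount 1) and 0.0475% (pseudocount 0.1) of all genes. The libraries did not overlap in TMM-scaled CPM for 1 gene, Prrx1, and for 25.4% of all genes. With the replicate number as a block, 1 gene was called in the second interval, Dcn, where 1.32% of all genes were called in that fit. Between those time points the number told only replicate 1 apart. A test of whether the change differed between the 2 intervals, chosen after seeing the data, called 0 of the 7 genes and 0% of all genes by edgeR's quasi-likelihood test. An unadjusted p under 0.05 was held by 0 of the 7 and by 701 of the 14742 genes tested. DESeq2, limma voom and limma on log2 FPKM also called 0 of the 7 in that test.

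**Figure D2:**
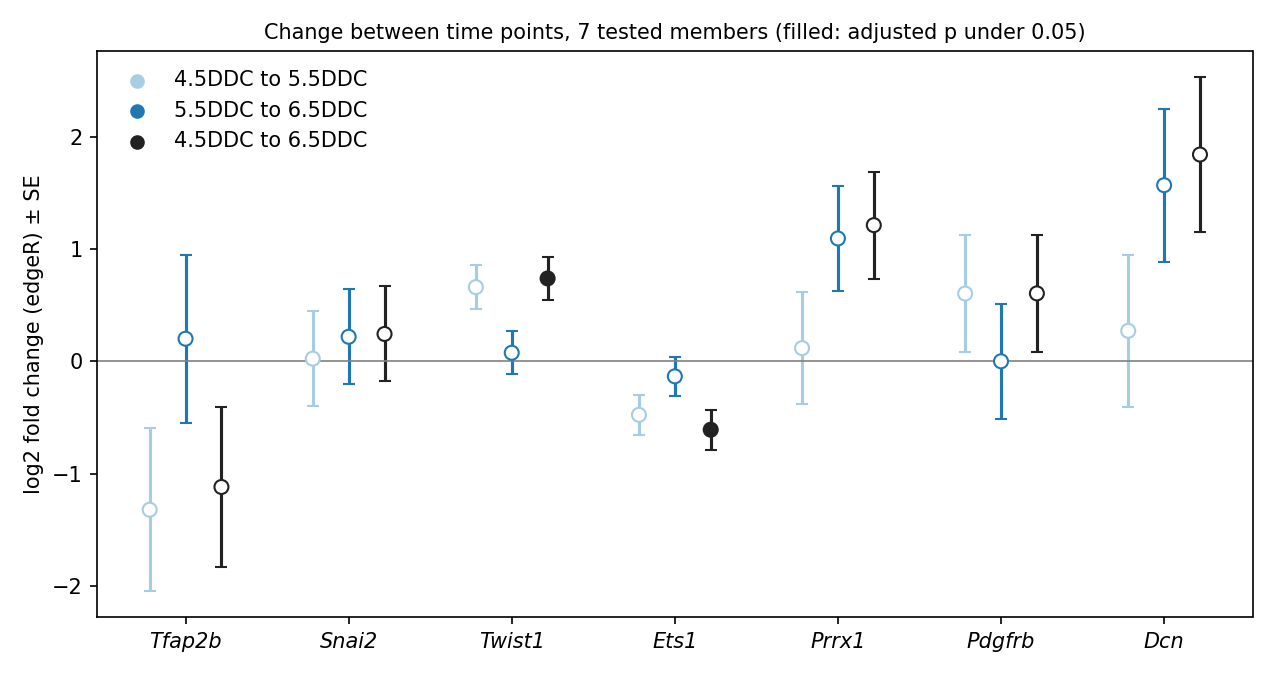
Log2 fold change of the 7 tested genes (y axis, edgeR, bars are standard errors) for each pair of time points, with filled points at an adjusted p under 0.05. Filled points are Twist1 (0.74) and Ets1 (-0.61) from 4.5DDC to 6.5DDC, and the longest bars belong to Tfap2b and Dcn.

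Foxd3 encodes a forkhead TF that specifies the crest. It had counts of 1, 1 and 0 at 4.5DDC, of 0, 0 and 1 at 5.5DDC and of 0 in each library of 6.5DDC. No library reached the floor of 3 counts, so Foxd3 RNA was not detectable at this depth, and no fold is given. In GRCm38 it spans chromosome 4 positions 99656299 to 99658622 (plus strand), and 3.83% of its exonic bases overlap Gm23366.

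Tfap2a and Tfap2b encode AP-2 TFs of crest and surface ectoderm. Tfap2a had between 4 and 12 counts in a library, with 0.142, 0.303 and 0.175 FPKM at 4.5DDC, 0.122, 0.123 and 0.103 FPKM at 5.5DDC and 0.179, 0.136 and 0.178 FPKM at 6.5DDC. The 5.5DDC libraries were below all others, and those of 4.5DDC and 6.5DDC overlapped. Of the exonic bases of Tfap2a, 14.6% overlap genes on the opposite strand, and whether the authors' counting used the strand is not given in the sources used here. Tfap2b had 0.0865, 0.287 and 0.232 FPKM at 4.5DDC, 0.0507, 0.101 and 0.106 FPKM at 5.5DDC and 0.0204, 0.195 and 0.0569 FPKM at 6.5DDC, from between 2 and 26 counts. Replicate 1 was the lowest at each time point and the time points overlapped. Tfap2b had a whole-span log2 fold change of -1.12 (SE 0.710) and was not called (edgeR adjusted p = 0.287). It was -0.69 without replicate 1 of 6.5DDC and -2.35 without replicate 2 of 6.5DDC.

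Snai1 and Snai2 encode zinc finger repressors of E-cadherin that act in the epithelial to mesenchymal change. Snai1 had between 1 and 11 counts in a library and at most 0.473 FPKM, with the lowest value, 0.0366 FPKM, in replicate 3 of 4.5DDC and no separation of time points. Snai2 had 1.61, 1.03 and 1.05 FPKM at 4.5DDC, 1.29, 1.36 and 1.20 FPKM at 5.5DDC and 2.49, 0.796 and 1.12 FPKM at 6.5DDC. The highest and the lowest library were both of 6.5DDC, and the time points overlapped. The log2 fold change of Snai2 over the whole span was 0.25 (SE 0.424, edgeR adjusted p = 0.714). It turned to -0.40 without replicate 1 of 6.5DDC and reached 0.55 without replicate 2 of 6.5DDC.

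Twist1, on chromosome 12 (33957671 to 33959829, plus strand), encodes a bHLH TF of crest-derived and mesodermal mesenchyme. It had 4.66, 5.51 and 4.77 FPKM at 4.5DDC, 9.08, 8.74 and 6.78 FPKM at 5.5DDC and 9.23, 8.25 and 7.86 FPKM at 6.5DDC. All libraries of 5.5DDC and 6.5DDC were above all libraries of 4.5DDC, and those of 5.5DDC and 6.5DDC overlapped. Means were 4.98 ± 0.460, 8.20 ± 1.24 and 8.45 ± 0.702 FPKM (SD, n = 3), from 116 to 437 counts in a library. Over the whole span Twist1 rose, with a log2 fold change of 0.74 (SE 0.194, edgeR adjusted p = 0.0276). The log2 difference was 1.01, 0.62 and 0.56 between 4.5DDC and 6.5DDC libraries of replicate number 1, 2 and 3. The number was not read as pairing those time points, so these are not paired changes. From 4.5DDC to 5.5DDC the log2 fold change was 0.66 (SE 0.194) and was not called by edgeR's quasi-likelihood test (edgeR adjusted p = 0.189), while DESeq2 called it (DESeq2 adjusted p = 0.0479, the lowest over 22 alternatives, the highest being 0.463). In bulk samples, fewer cells of a type and less RNA per cell cannot be told apart, and this holds for every level given here.

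The Twist1 call from 4.5DDC to 6.5DDC stood close to the threshold. It was kept in 3 of 9 fits that each dropped a library. It was lost without replicate 1 (edgeR adjusted p = 0.077), replicate 2 (0.0714) or replicate 3 (0.0609) of 4.5DDC, without replicate 2 of 5.5DDC (0.0544) and without replicate 1 (0.0531) or replicate 2 (0.0792) of 6.5DDC. It was also lost with only the 6 libraries of 4.5DDC and 6.5DDC (0.0509) and without the 3 libraries of replicate 1 (0.0686). The log2 fold change of Twist1 stayed between 0.59 and 0.82 over 22 alternatives, with an adjusted p from 0.00344 to 0.0792. The 9 fits that dropped a library called between 7.56% and 20.9% of all genes, against 18.7% in the main fit.

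Sequences upstream of the start are shown for Twist1, the gene that rose, and for Snai1 and Foxd3, TFs of the same programme with few or no counts, since the data set these levels far apart. RefSeq held promoter windows on GRCm38.p6 for 6 of the 10 genes, and the 3 shown are those whose window ends at the base before the annotated start of the gene. Each run is the 250 bases before the start, 5′ to 3′ on the plus strand, at chr12:33957421-33957670 for Twist1, chr2:167537945-167538194 for Snai1 and chr4:99656049-99656298 for Foxd3. Capitals mark matches to CANNTG, the E-box core that Snai and Twist proteins are known to bind, and to GGGCGG or its reverse complement CCGCCC, the GC box.
Twist1: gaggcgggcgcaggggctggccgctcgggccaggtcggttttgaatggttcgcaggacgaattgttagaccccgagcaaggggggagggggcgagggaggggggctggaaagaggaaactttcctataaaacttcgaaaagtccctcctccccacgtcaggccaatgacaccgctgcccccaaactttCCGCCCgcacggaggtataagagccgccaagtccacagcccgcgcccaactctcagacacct
Snai1: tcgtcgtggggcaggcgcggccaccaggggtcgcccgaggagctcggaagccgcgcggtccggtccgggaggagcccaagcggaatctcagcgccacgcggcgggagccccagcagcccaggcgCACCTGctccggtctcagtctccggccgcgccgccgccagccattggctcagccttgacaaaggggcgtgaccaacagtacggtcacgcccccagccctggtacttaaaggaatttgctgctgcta
Foxd3: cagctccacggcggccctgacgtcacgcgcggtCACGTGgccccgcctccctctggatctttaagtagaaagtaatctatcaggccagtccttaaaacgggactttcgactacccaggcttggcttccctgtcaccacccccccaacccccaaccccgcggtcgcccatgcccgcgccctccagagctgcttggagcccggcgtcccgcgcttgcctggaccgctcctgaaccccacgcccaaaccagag
The Twist1 window held 0 matches to CANNTG and 1 to CCGCCC. The Snai1 window held 1 E-box, CACCTG, and the Foxd3 window 1, CACGTG, and neither held a GC box. GCCNNNGGC, the core that AP-2 proteins bind, reads the same on both strands, is not in capitals, and was present in the Snai1 window alone of the 3, and in 13.7% of all windows. CANNTG, which reads the same on both strands, was present in 66.2% of 32851 such windows and the GC box, on either strand, in 32.7%. The share of G and C was 62.4% for Twist1, 70.0% for Snai1 and 65.6% for Foxd3. A match is a description of these letters and not of a bound site.

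Ets1, on chromosome 9 (32636221 to 32757820, plus strand), encodes an ETS TF that is expressed in cranial crest and in endothelium. It had 3.96, 4.65 and 4.05 FPKM at 4.5DDC, 3.49, 3.15 and 2.73 FPKM at 5.5DDC and 2.51, 3.16 and 2.76 FPKM at 6.5DDC. All libraries of 4.5DDC were above all libraries of the later time points, which overlapped with each other. Means were 4.22 ± 0.375, 3.12 ± 0.382 and 2.81 ± 0.324 FPKM (SD, n = 3), from 189 to 573 counts in a library. Over the whole span Ets1 fell, with a log2 fold change of -0.61 (SE 0.177, edgeR adjusted p = 0.0398). Between 4.5DDC and 6.5DDC libraries of the same replicate number the log2 difference was -0.66, -0.52 and -0.66. As for Twist1, these are not paired changes, since the number was not read as pairing those time points. From 4.5DDC to 5.5DDC the log2 fold change was -0.48 and was not called (edgeR adjusted p = 0.255).

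The Ets1 call was kept in 1 of 9 fits that left out 1 library, that without replicate 1 of 5.5DDC. It was lost without replicate 1 (edgeR adjusted p = 0.0619), replicate 2 (0.126) or replicate 3 (0.0784) of 4.5DDC, without replicate 2 (0.0728) or replicate 3 (0.0578) of 5.5DDC and without replicate 1 (0.0757), replicate 2 (0.0594) or replicate 3 (0.0937) of 6.5DDC. It was lost as well with no filter on low counts (0.091), with only the 6 libraries compared (0.0938), without the 3 libraries of replicate 1 (0.0511) and with replicates 2 and 3 of 5.5DDC summed (0.0632). The log2 fold change of Ets1 stayed between -0.73 and -0.46 over 22 alternatives. The lowest adjusted p among them was 0.0133, from DESeq2. As given for Twist1, the 9 fits that left out 1 library called between 7.56% and 20.9% of all genes.

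Prrx1 encodes a homeodomain TF of limb and cranial mesenchyme. It had 0.0508, 0.162 and 0.101 FPKM at 4.5DDC, 0.0931, 0.143 and 0.111 FPKM at 5.5DDC and 0.146, 0.299 and 0.251 FPKM at 6.5DDC. Replicate 1 was the lowest at each time point. The FPKM values of 6.5DDC were above those of 5.5DDC and overlapped those of 4.5DDC, and CPM by library total did the same, with 1.01 CPM in replicate 1 of 6.5DDC below the 1.07 CPM in replicate 2 of 4.5DDC. After TMM scaling the libraries of 6.5DDC were just above those of 4.5DDC, a separation that depends on the scaling. The counts behind these values were low, between 6 and 34 in a library. Its log2 fold change over the whole span was 1.22 (SE 0.477) and was not called (edgeR adjusted p = 0.101), with 1.36, 0.90 and 1.04 within replicate number 1, 2 and 3. From 5.5DDC to 6.5DDC it was 1.10 (edgeR adjusted p = 0.254). With the replicate number as a block, the whole-span value of Prrx1 was 1.22 and was called (edgeR adjusted p = 0.0457). The number was not read as pairing those 2 time points.

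Pdgfrb encodes the PDGF receptor of pericytes, vascular smooth muscle and mesenchyme. It had 1.70, 1.02 and 0.488 FPKM at 4.5DDC, 1.55, 1.56 and 1.91 FPKM at 5.5DDC and 0.549, 1.77 and 2.62 FPKM at 6.5DDC. The highest library was of 6.5DDC and the lowest of 4.5DDC, and replicate 1 was the highest of 4.5DDC and the lowest of 6.5DDC. The log2 difference from 4.5DDC to 6.5DDC was -1.54 within replicate 1, 0.81 within replicate 2 and 2.25 within replicate 3, a number that was not read as pairing those time points. Over all libraries the log2 fold change was 0.61 (SE 0.521, edgeR adjusted p = 0.434). Dropping a library moved it to 1.10 (replicate 1) or 0.28 (replicate 3) at 4.5DDC and to 1.01 (replicate 1) or 0.14 (replicate 3) at 6.5DDC, with no call. Without the 3 libraries of replicate 1, chosen after seeing the data, it was 1.51 and was called (edgeR adjusted p = 0.0141).

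Dcn, on chromosome 10 (97479609 to 97518143, plus strand), encodes decorin, a small proteoglycan that binds collagen in fibroblast matrix. It was the most abundant of the 10 genes, with 4.91, 8.85 and 24.2 FPKM at 4.5DDC, 6.45, 20.4 and 22.1 FPKM at 5.5DDC and 17.5, 61.9 and 63.8 FPKM at 6.5DDC. Replicate 1 was the lowest at each time point, and replicate 1 of 6.5DDC was below replicate 3 of 4.5DDC, so that the time points overlapped. Means were 12.7 ± 10.2, 16.3 ± 8.59 and 47.8 ± 26.2 FPKM (SD, n = 3), from 187 to 2203 counts in a library. For the whole span Dcn had a log2 fold change of 1.85 (SE 0.690) and was not called (edgeR adjusted p = 0.0891). Within replicate number 1, 2 and 3 it was 1.89, 2.83 and 1.23, higher in 3 of 3. Without replicate 3 of 4.5DDC the log2 fold change of Dcn was 2.81 and without replicate 1 of 6.5DDC 2.23, and both were called (edgeR adjusted p = 0.0351 and 0.046). Without the 3 libraries of replicate 1 it was 1.83 and called (edgeR adjusted p = 0.0128), and over 22 alternatives the adjusted p lay between 0.00175 and 0.247. From 5.5DDC to 6.5DDC the log2 fold change of Dcn was 1.57 (edgeR adjusted p = 0.257), and 1.56 with the replicate number as a block, where it was called (edgeR adjusted p = 0.0351). Between those time points the number told replicate 1 apart but not replicates 2 and 3, so the block does not stand for pairs. Over the whole span the same block gave 1.94, which was called (edgeR adjusted p = 0.00194). The number was not read as pairing 4.5DDC and 6.5DDC either.

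By replicate number, Dcn was the 1 gene of the 7 called by edgeR's quasi-likelihood test with the time point in the model, against 5.41% of all genes. That test asks for any difference between replicates 1, 2 and 3, and gave Dcn an edgeR adjusted p of 0.0100. The p-values by replicate number belong to that test and not to the difference of replicate 1 from the others. Replicate 1 was lower than the mean of replicates 2 and 3 by a log2 difference of -1.76. The difference was -1.63 at 4.5DDC, -1.72 at 5.5DDC and -1.77 at 6.5DDC, so that it was of about the same size at each time point. Of 18 alternatives, 17 kept the call of Dcn and 1 lost it, that without replicate 1 of 4.5DDC (edgeR adjusted p = 0.058); the lowest adjusted p among them, 1.96e-09, was from DESeq2. The log2 difference was -1.50 for Tfap2b (edgeR adjusted p = 0.155), -0.81 for Prrx1 (0.412) and 0.71 for Snai2 (0.508). It was -0.14 for Pdgfrb, -0.03 for Ets1 and 0.12 for Twist1. For Pdgfrb this value joined unlike differences, 1.19 at 4.5DDC, -0.14 at 5.5DDC and -1.88 at 6.5DDC. Twist1 and Ets1, the genes called between time points, differed by at most 0.26 between replicate 1 and the others at any time point.

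**Figure D3:**
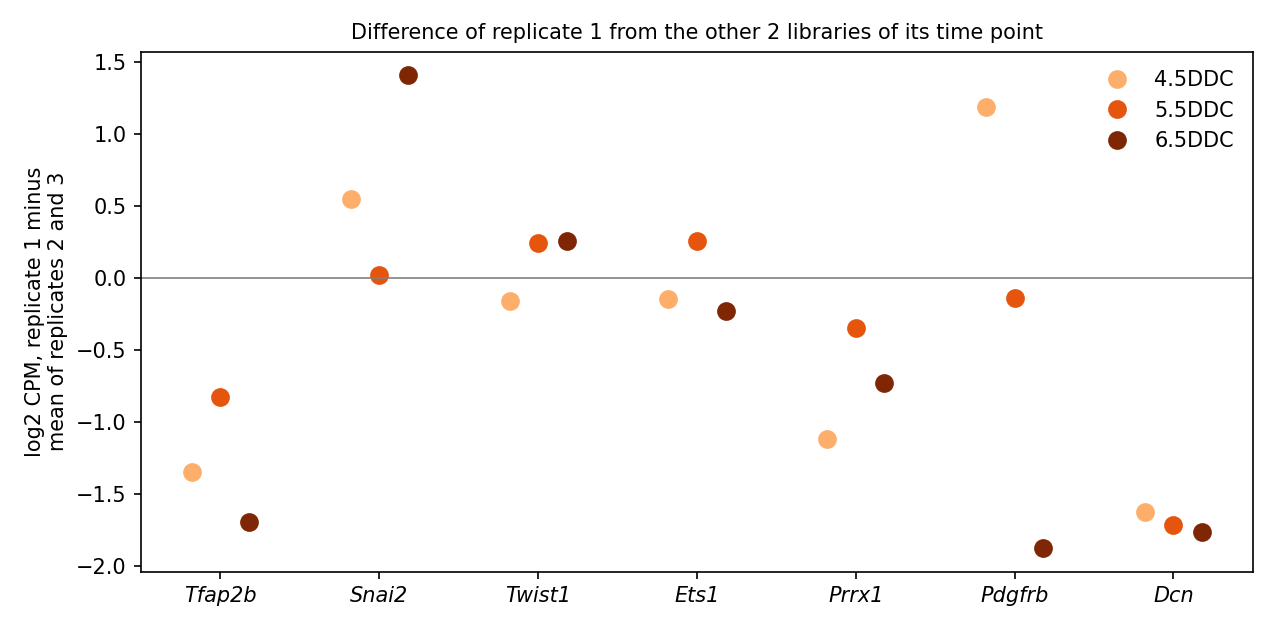
Log2 CPM of replicate 1 minus the mean of replicates 2 and 3 of the same time point (y axis) for the 7 tested genes, 1 point per time point. The 3 Dcn points lie together between -1.77 and -1.63, whereas those of Pdgfrb run from 1.19 to -1.88.

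Some lists of markers also held genes called by replicate number. Of the wider mesenchyme and fibroblast list, 6 of 18 tested genes were called by replicate number, 5 of them lower in replicate 1, and of the wider neural crest list 5 of 18, 4 of them lower, where 5.41% of all genes were called. All 4 tested endoderm genes were called and higher in replicate 1. Among other lists the calls were 0 of 11 pericyte and smooth muscle genes, 0 of 7 endothelial, 0 of 2 blood and immune, 1 of 11 adhesion, 1 of 7 surface ectoderm, 1 of 12 progenitor, 1 of 3 pluripotency and 1 of 2 interneuron genes. Of 9 tested genes of crest-derived and placodal peripheral neurons, 1 was called, lower in replicate 1. The endoderm list summed to 5.19, 2.52 and 1.30 FPKM at 4.5DDC, 5.72, 1.80 and 2.28 FPKM at 5.5DDC and 16.9, 3.45 and 2.97 FPKM at 6.5DDC, with replicate 1 the highest at each time point. Its most abundant gene was Gata4, with a mean of 2.05 FPKM. The part of these cell types in the Dcn difference was not tested.

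Other genes of the programmes were read from wider lists, which share 0 symbols with the 10 genes or with each other. Of the wider neural crest list, 24 of 25 symbols were found and 18 tested, of which 3 rose and 0 fell from 4.5DDC to 6.5DDC by edgeR's quasi-likelihood test, with a median log2 fold change of 0.43. That is 16.7% of the tested genes, near the 18.7% of all genes, and no result about crest genes. Those that rose were Ednrb, a receptor that neural progenitors also express, Mef2c and the cadherin gene Cdh6, the last named after its values were seen. Ednrb had the highest level of the list, with a mean of 168 FPKM, and rose from 130 ± 17.9 to 199 ± 12.8 FPKM (SD, n = 3). Without Ednrb the list summed to between 124 and 141 FPKM at 4.5DDC and between 191 and 204 FPKM at 6.5DDC. Most of that difference lay in Cdh6, with 43.0 ± 4.03 and 82.4 ± 13.8 FPKM, and Ednra, with 11.1 ± 4.56 and 24.9 ± 9.61 FPKM (SD, n = 3). Ednra was not called (edgeR adjusted p = 0.0516). The sum of 194 FPKM in replicate 1 of 5.5DDC held 32.1 FPKM of Mitf, also named after its values were seen, which was between 0.602 and 1.40 FPKM in the other libraries. Its counts, between 34 and 205 in a library, do not show a jump of that size, so the FPKM value and the sum that holds it are doubtful. Of its genes, 12 had a mean below 1 FPKM. Cdh6 was called in 9 of 9 fits that dropped a library. Ednrb was called in 5 of 9, its call being lost without replicate 1 (edgeR adjusted p = 0.0675) or 2 (0.0952) of 4.5DDC, replicate 2 of 5.5DDC (0.0512) or replicate 2 of 6.5DDC (0.102). Mef2c was called in 3 of 9, those without replicate 2 of 4.5DDC (edgeR adjusted p = 0.0448), replicate 1 of 5.5DDC (0.0286) or replicate 1 of 6.5DDC (0.0213), and its adjusted p lay between 0.00849 and 0.146 over 22 alternatives, the highest being from limma on log2 FPKM. The count of 3 became 5 without replicate 1 of 5.5DDC and 1 without replicate 2 of 5.5DDC or of 6.5DDC. In those fits, in order, 20.9%, 13% and 7.56% of all genes were called, against 18.7% in the main fit. With replicates 2 and 3 of 5.5DDC summed, Ednrb (edgeR adjusted p = 0.0502) and Mef2c (0.0536) lost their calls.

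Among the wider mesenchyme and fibroblast genes, 25 of 26 symbols were found and 18 tested, of which 5 rose and 1 fell, where 9.21% of all genes rose and 9.53% fell, and the median log2 fold change was 1.29. The 1 that fell was Prrx2, a paralogue of Prrx1, named after its values were seen, with a log2 fold change of -2.96 (SE 0.581, edgeR adjusted p = 0.00925), a call kept in 22 of 22 alternatives (adjusted p at most 0.0415, at least 0.000395). It had 3.27, 2.40 and 1.58 FPKM at 4.5DDC and 0.125, 0.190 and 0.299 FPKM at 6.5DDC, from between 1 and 51 counts in a library, the lowest below the floor of 3 counts. The size of the change is therefore imprecise, and with limma on log2(FPKM + 1) it was -1.47. The collagen gene Col6a3 and the matrix gene Postn rose by 3.33 (SE 0.819) and 3.31 (SE 0.978) on the log2 scale. With limma voom neither was called (adjusted p = 0.0605 and 0.0988), nor with limma on log2(FPKM + 0.1), where the values were 1.58 and 2.36, or on log2(FPKM + 1), where they were 0.71 and 1.07. The mean of Col6a3 was 0.324 FPKM at 4.5DDC and 1.20 FPKM at 6.5DDC, a smaller rise than its counts gave. The deposited FPKM and counts thus differ on the size of the Col6a3 change, and the reason was not tested. Lum, which encodes a proteoglycan related to decorin, had a log2 fold change of 3.37 (SE 1.09) and was not called (edgeR adjusted p = 0.0583). Lum was called in 8 of 22 alternatives, among them 2 of 9 fits that dropped a library. Its FPKM was 0.0448, 0.251 and 0.332 at 4.5DDC and 0.318, 2.81 and 3.38 at 6.5DDC, with the lowest value of both time points in replicate 1, as for Dcn. Postn was called in 2 of 9 fits that dropped a library, those without replicate 1 of 5.5DDC or of 6.5DDC, and was not called with the summed library (edgeR adjusted p = 0.0595), and Col6a3 in 4 of 9, those without any 1 library of 5.5DDC or without replicate 1 of 6.5DDC. The other genes that rose were Col6a1 (2.01), Bgn (2.56) and Sparc (1.18), called in 8, 5 and 7 of those 9 fits. Col6a1 and Bgn were named after their values were seen. The count of 6 calls became 1 without replicate 2 of 4.5DDC, 10 without replicate 1 of 5.5DDC, 13 without replicate 1 of 6.5DDC and 3 without replicate 2 or 3 of 6.5DDC. In those fits, in order, 7.61%, 20.9%, 20.7%, 7.56% and 13.9% of all genes were called, against 18.7% in the main fit. Sparc, a matrix protein gene that many cell types express, had the highest level, with a mean of 274 FPKM. Without Sparc the list summed to 95.6, 69.5 and 61.7 FPKM at 4.5DDC, to 106, 87.8 and 89.2 FPKM at 5.5DDC and to 72.7, 116 and 138 FPKM at 6.5DDC. The high sums of replicate 1 at 4.5DDC and 5.5DDC rested on Col5a1, named after its values were seen, with 48.4, 15.1 and 13.1 FPKM at 4.5DDC and 58.4, 13.3 and 14.8 FPKM at 5.5DDC. Of the 18 tested genes of the list, 13 were lower in replicate 1.

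**Figure D4:**
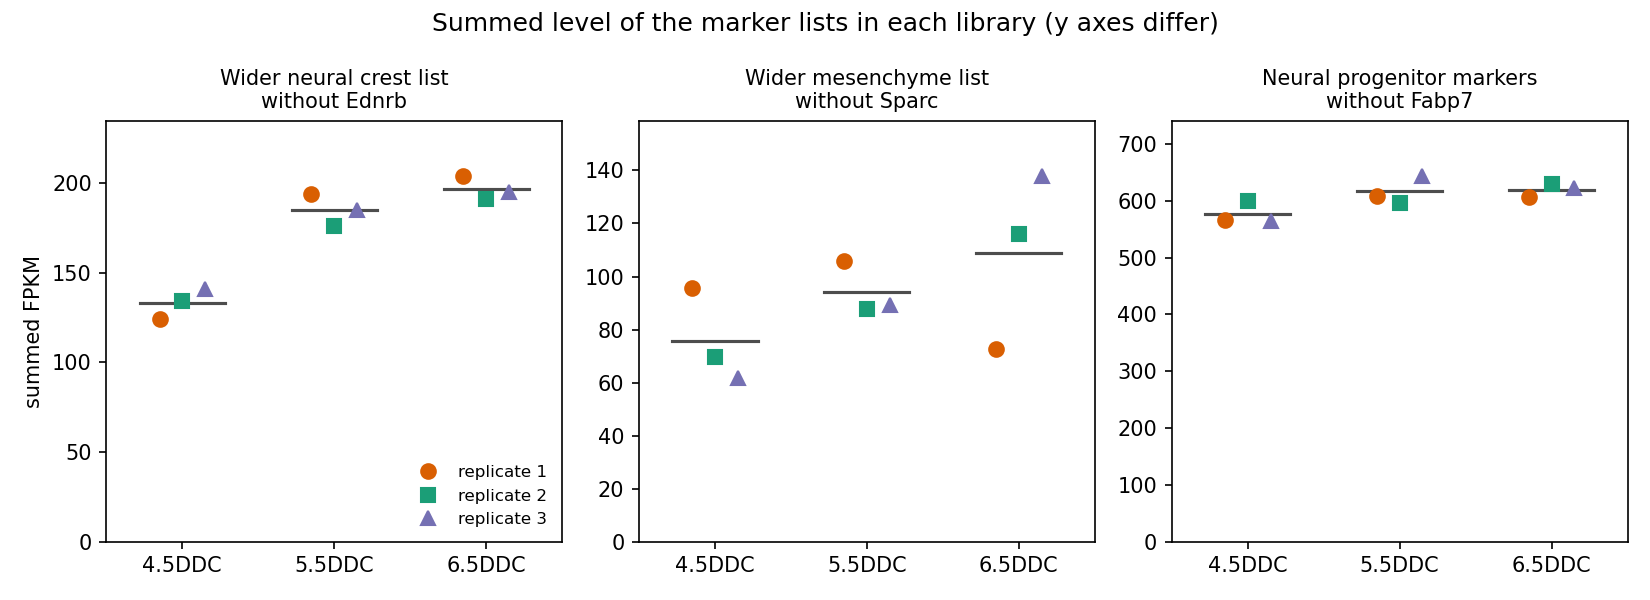
Summed FPKM per library (y axes start at 0 and differ) of the wider neural crest list without Ednrb, the wider mesenchyme and fibroblast list without Sparc and the neural progenitor markers without Fabp7, by time point; symbols are replicates 1, 2 and 3 and the line is the mean. The crest list lies between 124 and 141 FPKM at 4.5DDC and between 191 and 204 FPKM at 6.5DDC, and the mesenchyme list spreads from 72.7 to 138 FPKM at 6.5DDC.

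Further lists were read from 4.5DDC to 6.5DDC by edgeR's quasi-likelihood test, where 9.21% of all genes rose and 9.53% fell. Among pericyte and smooth muscle genes, read beside Pdgfrb, 1 of 11 tested genes rose, Tbx18, and 0 fell, with a median of -0.41 and the call of Tbx18 lost without replicate 2 of 6.5DDC (edgeR adjusted p = 0.0588), and the most abundant was Tagln with a mean of 51.7 FPKM. Of the endothelial genes, read beside Ets1, 1 of 7 rose, Kdr, by 1.76 on the log2 scale (SE 0.370), and 0 fell, and Cldn5 had 0 counts in all 9 libraries. The adhesion list had 1 rise in 11, Cdh2, by 0.64 (SE 0.174), a call kept only without replicate 1 of 5.5DDC or replicate 3 of 6.5DDC when a library was dropped and lost with the summed library (edgeR adjusted p = 0.0568), with Vim the most abundant at a mean of 1791 FPKM. The surface ectoderm list, read beside the AP-2 genes, had 0 calls in 7 genes, all 7 of them lower in sign, with Krt5 at 0 in every library. Blood and immune genes had 0 calls in 2, endoderm genes 0 in 4, pluripotency genes 0 in 3, with Dppa3 and Fgf4 at 0 in every library, and hindbrain interneuron genes 0 in 2, with Ptf1a and Lbx1 at 0. With the replicate number as a block, all 4 tested endoderm genes were called, in a fit that called 23.2% of all genes. Of 9 tested genes of crest-derived and placodal peripheral neurons, 1 rose and 2 fell. The calls of that list became 1 without replicate 2 of 4.5DDC. Of 12 neural progenitor markers, all tested, 1 rose, Prom1, and 2 fell, Sox3 and Nkx6-1, the latter named after its values were seen. Dropping replicate 2 of 4.5DDC or of 6.5DDC ended the calls of both that fell, and dropping replicate 1 of 6.5DDC that of Sox3. Dropping a library moved some of these counts: pericyte and smooth muscle calls became 3 without replicate 1 of 5.5DDC or of 6.5DDC and 2 without replicate 1 of 4.5DDC, and surface ectoderm and interneuron calls 1 without replicate 1 of 6.5DDC. Progenitor calls became 5 without replicate 1 or 3 of 4.5DDC or replicate 3 of 6.5DDC and 1 without replicate 2 of 4.5DDC or of 6.5DDC. The share of all genes called moved as well, between 7.56% and 20.9% over the fits that dropped a library. With DESeq2 progenitor calls were 6, with no filter on low counts 5, and with limma voom or limma on log2 FPKM 2. Of the lists with 0 calls, the blood and immune list had 1 gene at an unadjusted p under 0.05 and the others 0, and DESeq2, limma voom and limma on log2 FPKM called 0 in each. Without the 3 libraries of replicate 1, chosen after seeing the data, pericyte and smooth muscle calls were 6, progenitor calls 5, surface ectoderm calls 3, adhesion calls 2, endoderm calls 1 and interneuron calls 1, in a fit that called 31.3% of all genes.

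Genes most like each member were sought by the Pearson correlation of log2 CPM over the 9 libraries, which share time point and replicate number, as a description. For Dcn they were Pcdhb21 (0.990), Glrb (0.986) and Usp49 (0.981). For Twist1 they were Uvrag (0.959), Snx31 (0.943) and Mfsd11 (0.933), and for Ets1 Itgb1bp2 (0.957), Gm6728 (0.955) and Ccdc42 (0.954). Those nearest to Pdgfrb were Gm10651 (0.977), Adcy5 (0.956) and Noxo1 (0.951), and those nearest to Prrx1 Brox (0.957), Ablim3 (0.957) and Gabra3 (0.952). Snai2 stood nearest to Tm9sf1 (0.977), Bsg (0.950) and Prelid2 (0.937), and Tfap2b to Zfp72 (0.957), Slc38a1 (0.933) and Pvt1 (0.925). Neighbours were drawn from tested genes with a mean of at least 1 CPM. Foxd3, Tfap2a and Snai1, which were not tested, and Tfap2b, with a lower mean, could therefore not appear. None of the other members was among the 3 nearest of another, which does not show whether the members go together.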

How the data were processed

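Bulk RNA of 9 libraries, 3 per time point, was read from the deposited tables. The authors mapped single-end reads of polyadenylated RNA to GRCm38 with TopHat 2.0.4 and counted them with HTSeq 0.6.1, and since 98 symbols (0 of the 10 genes) held values that are not whole within a tolerance of 1e-09, the deposited values were taken for estimated counts and rounded. The authors made the deposited FPKM values with Cufflinks 2.1.1. The deposited log2 values are the authors' voom output of the counts and served as a check only.

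Genes were filtered by filterByExpr and tested by edgeR 4.0.16 (quasi-likelihood, TMM factors 0.951 to 1.04) in R 4.3.3, in 1 fit of the 9 libraries with 6 residual degrees of freedom. P-values were adjusted by Benjamini-Hochberg over the 14742 genes tested, with a threshold of 0.05. Replicate number was tested with time point in the model, for any difference between replicates 1, 2 and 3. The differences given beside that test are replicate 1 minus the mean of replicates 2 and 3, and have no p-value of their own. The procedure was tested on simulated data. Alternatives were other scalings and filters, DESeq2 1.42.0, limma 3.58.1 (voom, and log2 FPKM with a pseudocount of 1 or 0.1), replicate blocks, the 6 libraries compared and leaving out each library. Added after seeing the data were the fits without replicate 1, with replicates 2 and 3 of 5.5DDC summed, and the test between intervals.

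Residuals of same-numbered libraries correlated at 0.743, 0.386 and 0.452 between 4.5DDC and 5.5DDC, at 0.454, 0.367 and 0.197 between 5.5DDC and 6.5DDC, and at 0.383, -0.0396 and -0.215 between 4.5DDC and 6.5DDC. The replicate number was therefore not read as pairing 4.5DDC and 6.5DDC. Between adjacent time points it was read as setting replicate 1 apart from the others. Between replicates 2 and 3 the values were 0.291 and 0.39 from 4.5DDC to 5.5DDC, somewhat below those with the same number. From 5.5DDC to 6.5DDC they were 0.225 and 0.405, against 0.367 and 0.197 with the same number. From 4.5DDC to 6.5DDC they were 0.46 and 0.487, above those with the same number. Replicate 1 was thus told apart, and replicates 2 and 3 were not. Non-overlap was read from TMM-scaled CPM.

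The members and lists were chosen with earlier results of these data known. Named genes are the 10 members and, of each of the other lists (neural crest, mesenchyme and fibroblast, pericyte and smooth muscle, adhesion, surface ectoderm, endothelium, blood and immune, endoderm, pluripotency, hindbrain interneurons, neural progenitors), the gene of highest mean FPKM, the 3 tested genes of largest absolute log2 fold change from 4.5DDC to 6.5DDC and genes at 0 in all libraries, and for each tested member the 3 most correlated genes with a mean of at least 1 CPM. A list of crest-derived and placodal peripheral neurons was read for its counts of calls only. Foxc2 and Foxf1 were not found in the tables.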

Additional observations from a re-analysis of the deposited data

How the results depend on the processing

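Of 65 log2 results recomputed in 1395 alternatives, 1221 kept their direction and side of the threshold, 87 lost the call, 75 gained one and 12 turned sign. Only results called in the main fit could lose a call, so the 1395 alternatives are not the base for the 87. Among those called, losses ran from 0 of 22 alternatives, as for Cdh6, to 12 of 22 for Ets1. DESeq2 called 1 member in the first interval and, over the whole span, 6 genes of the wider crest list. From 5.5DDC to 6.5DDC, 1 member was called with the replicate block and 1 with a block for replicate 1 only. From 4.5DDC to 6.5DDC the count of 2 members became 1 with no filter on low counts, 4 with the replicate block, 4 with the block for replicate 1 only (both adding Prrx1, adjusted p 0.0457 and 0.0311, and Dcn, 0.00194 and 0.00175, to Twist1 and Ets1), 0 with only the 6 libraries compared and 1 with replicates 2 and 3 of 5.5DDC summed (added after seeing the data). The 3 calls of the wider crest list became 6, 6, 7 and 1 with no filter, the replicate block, the block for replicate 1 and the summed library, and 5 without all libraries of replicate 1. The 6 calls of the wider mesenchyme list became 10 with no filter, 3 with limma voom, 3 and 3 with limma on log2 FPKM, 11 and 13 with the blocks and 15 without all libraries of replicate 1 (added after seeing the data). With either block the 4 tested endoderm genes were all called, 4 in place of 0, as were 1 surface ectoderm and 1 interneuron gene, and with the block for replicate 1 only 1 blood and immune gene, each in place of 0. Leaving out 1 library gave 0 to 2 members called from 4.5DDC to 6.5DDC, 0 to 1 by replicate number, 1 to 5 crest genes and 1 to 13 mesenchyme genes. It gave whole-span log2 fold changes of -0.40 to 0.55 for Snai2, -0.28 to 1.96 for Ocln, -0.24 to 1.39 for Tek and -0.94 to 0.49 for Tfcp2l1, and replicate number differences of -0.19 to 0.06 for Ets1 and -0.92 to 0.51 for Pdgfrb. Without all libraries of replicate 1 the log2 fold change was -0.18 for Snai2 and -0.02 for Tek. From 4.5DDC to 6.5DDC the share of all genes called was 18.7%, and 11.2% with no filter, 24.9% with DESeq2, 17.7% with limma voom, 16.8% and 15.4% with limma on log2 FPKM, 23.2% and 29.7% with the replicate block and the block for replicate 1, 13.4% with only the 6 libraries, 13.1% with the summed library and 31.3% without replicate 1, so that part of these moves is shared with all genes. With 1 library left out, that share lay between 7.56% (without replicate 2 of 6.5DDC) and 20.9% (without replicate 1 of 5.5DDC). From 5.5DDC to 6.5DDC the share of all genes called was 0.224%, and 1.32% and 4.30% with the blocks. The cause was not tested in any of these. Depth limits Foxd3, Tfap2a and Snai1, which had at most 12 counts in a library and were not tested.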
